A study of Rattus norvegicus with 372 samples.

Results

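Diclofenac at 400 µM, indomethacin at 300 µM and naproxen at 2000 µM were contrasted with one another in primary rat hepatocytes. All are non-steroidal anti-inflammatory drugs (NSAIDs) that carry a carboxylic acid, and each was given here at the higher of its 2 concentrations in the study. They were chosen by the chemical name and the concentration on the labels, which gave 3 wells per drug in each of 2 batches, that is 18 of the 186 wells read by each of 2 assays and 36 of all 372 libraries. The cells came from male Wistar rats, were kept between layers of collagen (sandwich culture) in 96-well plates and were exposed for 24 h in medium holding insulin, dexamethasone, EGF and 0.5% DMSO. The vehicle wells had the same medium and DMSO without a drug, with 3 wells in batch 1 and 6 in batch 2. Hepatocytes of a single rat made up each batch and the wells of a drug were technical triplicates, so that a p-value here measures the spread between wells of 1 cell preparation. Diclofenac and naproxen stood on the same plate (plate 4 in batch 1 and plate 2 in batch 2), indomethacin on another (plate 5 and plate 3), and vehicle wells on plate 4 in batch 1 and on plates 2 and 3 in batch 2. For indomethacin in batch 1 the drug and the plate therefore cannot be told apart. The 3 concentrations differ, so each contrast compares treatments as they were applied, and what belongs to the compound and what to its concentration cannot be told apart.

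NSAIDs block the cyclooxygenases, which turn arachidonic acid into the precursor of prostaglandins and thromboxane. Diclofenac is a phenylacetic acid with a chlorinated anilino group, indomethacin an indole acetic acid with a chlorobenzoyl group, and naproxen an arylpropionic acid built on a methoxynaphthalene. In the liver, cytochrome P450 enzymes oxidise such drugs, and their acid group is joined to glucuronic acid, coenzyme A or amino acids. Carboxylic acids with a bulky hydrophobic part can also bind PPARα, the nuclear receptor that switches on fatty acid oxidation in rodent liver.

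In TempO-Seq, pairs of detector oligos are hybridised to a short stretch of each transcript, ligated, amplified and counted. The whole transcriptome (WT) assay has 22253 probes and the surrogate (ST) assay has 2654. Drug wells held 5729896 to 6853910 reads in batch 1 and 6251486 to 8245189 in batch 2 by WT assay, against 583036 to 1409467 and 1113365 to 2210264 by ST assay. Levels are given as CPM, the reads of a probe relative to the scaled size of its library. In pairs of values that name no batch, the first is of batch 1 and the second of batch 2. Probes differ in efficiency, so levels were compared between wells and not between genes. Differences are given as the log2 fold-change (L2FC) with its standard error, and a probe was called at an adjusted p below 0.05 in edgeR's quasi-likelihood test, adjusted over the 10689 WT probes tested and the 3 pairs of drugs. Contrasts with vehicle or with other chemicals were each adjusted over the probes alone. Across probes, the log2 CPM of wells of the same drug and batch correlated at r = 0.968 to 0.990, while wells of different drugs did so at 0.885 to 0.937 where diclofenac was 1 of them and at 0.941 to 0.970 between indomethacin and naproxen. No 2 wells held identical counts. Replicate numbers only name the wells of a group, in the order of the sample records, and pair nothing.

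Diclofenac stood furthest from the other drugs, and indomethacin and naproxen lay closest to each other. Between diclofenac and indomethacin, 5158 (48.3%) of the tested probes were called in batch 1 and 5735 (53.7%) in batch 2. Diclofenac and naproxen differed at 4751 (44.4%) and 5448 (51%) probes, and indomethacin and naproxen at 3786 (35.4%) and 3038 (28.4%). Many of these differences were small: the median absolute L2FC over all tested probes was 0.51 and 0.56 for diclofenac minus indomethacin, 0.45 and 0.52 for diclofenac minus naproxen, and 0.37 and 0.30 for indomethacin minus naproxen in batches 1 and 2. Calls of the same direction in both batches, that is in cells of both rats, were made for 3874 (36.2%), 3777 (35.3%) and 1612 (15.1%) probes respectively. Opposite calls in the 2 batches were made for 48, 28 and 26 probes. The L2FC of the 2 batches correlated across probes at r = 0.814, 0.856 and 0.557, as a description, since probes are not independent. The first of these pairs gave 1790 probes higher with diclofenac and 2084 lower, the second 1704 and 2073, and the last 793 higher with indomethacin and 819 lower.

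**Figure D1:**
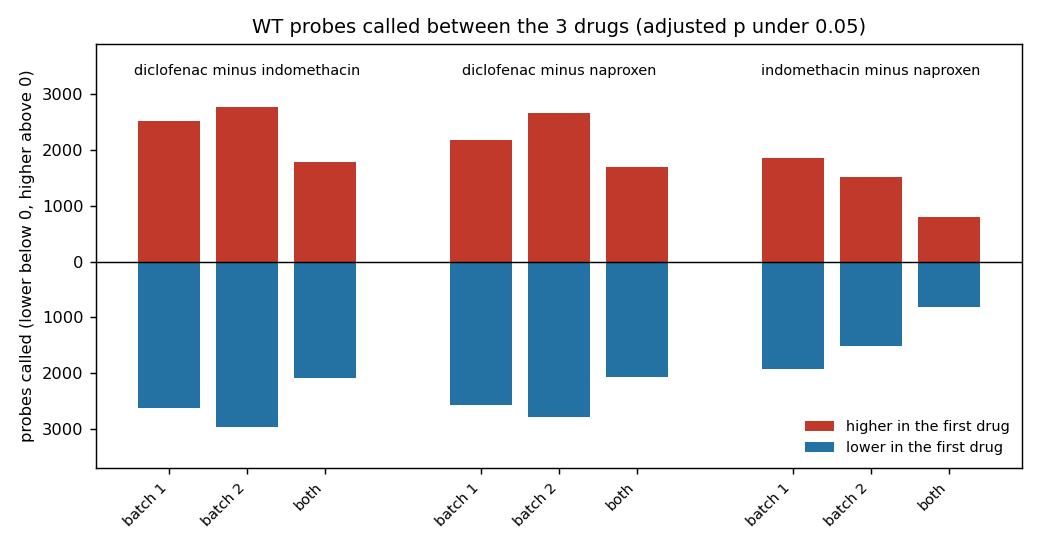
Number of WT probes called higher (upward bars) and lower (downward bars) in each pair of drugs, for batch 1, for batch 2 and for both batches in the same direction, at an adjusted p below 0.05 in edgeR. The indomethacin and naproxen pair has the fewest probes called in both batches (1612), against 3874 and 3777 for the pairs with diclofenac.

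Hepatocyte markers were read first, because they separated the drugs. All 40 genes of the hepatocyte marker list, such as albumin, fibrinogen and urea cycle genes, were detected above 3 counts in every group. Their summed level had a median of 65699 CPM in the vehicle wells of batch 1 and 63134 CPM in those of batch 2. Diclofenac wells reached 11903 and 9222 CPM, which is 18.1% and 14.6% of vehicle. Indomethacin wells reached 70468 and 45813 CPM (107% and 72.6%), and naproxen wells 36239 and 37296 CPM (55.2% and 59.1%). In whole lysates fewer cells of a type and less RNA per cell cannot be told apart. The part of this difference in the other results was not tested. Of the 40 markers, 34 were lower with diclofenac than with indomethacin in both batches and none was higher, at median L2FCs of -2.40 and -2.19 in batches 1 and 2, where the share over all tested probes was 19.5% lower and 16.7% higher. Against naproxen, diclofenac gave 35 lower and 1 higher, at medians of -1.43 and -1.79 (19.4% and 15.9% over all probes). Indomethacin against naproxen gave 13 higher and 2 lower, at medians of 0.79 and 0.13 (7.42% and 7.66% over all probes). The median over all tested probes lay within 0.04 of 0 in each of these pairs and batches.

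Cps1, the first enzyme of the urea cycle, averaged 16.1 ± 5.47 CPM (SD, n = 3 wells) with diclofenac, 440.3 ± 71.4 with indomethacin and 42.4 ± 7.17 with naproxen in batch 1, and 16.0 ± 5.84, 291 ± 46.2 and 71.8 ± 6.04 in batch 2. The vehicle means were 317 and 284 CPM, so that indomethacin left Cps1 near or above vehicle (L2FC 0.47 and 0.03) while diclofenac (-4.30 and -4.14) and naproxen (-2.90 and -1.98) lowered it. Fga, a fibrinogen chain, had an indomethacin minus naproxen L2FC of 1.18 in batch 1 and 0.39 in batch 2, the latter not called. Bhmt, which remethylates homocysteine, had an indomethacin minus naproxen L2FC of 2.79 ± 0.32 in batch 1, was also called in batch 2, and had a diclofenac minus indomethacin L2FC of -5.08 and -4.63.

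A probe was then counted as set apart by a drug when both contrasts of that drug with the other two were called in the same direction with an absolute L2FC of at least 1, in both batches. These contrasts share the wells of that drug and are not independent of each other. Where such probes are counted against vehicle below, the wells that chose them are used again, so those counts only describe the probes: the share over all tested probes is printed beside them, and nothing is read from the gap. Diclofenac set apart 768 (7.18%) probes that were lower and 227 (2.12%) that were higher than with either of the other drugs, together 995 (9.31%). Indomethacin set apart 112 (1.05%) higher and 44 (0.412%) lower, and naproxen 113 (1.06%) higher and 16 (0.15%) lower. By a rule that ranked these probes by the smallest of their 4 absolute L2FCs, the first 6 in each direction are named below for each drug. In 70 of the 72 combinations of these 36 genes with a batch, the 3 wells of the drug lay outside the range of the 6 wells of the other drugs. The exceptions were Rab15 and Hspa5, both in batch 2. As the genes were picked for large differences in these same wells, their separation was nearly fixed and only describes them.

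Diclofenac-low probes were the largest set. Of the 768 probes set apart as lower, 663 were also below vehicle with diclofenac in both batches (background 26.2%), while 223 were above vehicle with indomethacin (14%) and 148 below, and 195 above with naproxen (13.6%) and 219 below. The shares over all tested probes below vehicle were 15.1% with indomethacin and 15% with naproxen. Dhrs7l1, a relative of the short-chain dehydrogenase Dhrs7, is shown as the example. In batch 1 it was read at 7.62, 15.2 and 16.5 CPM in the diclofenac wells, at 585, 511 and 493 CPM in the indomethacin wells and at 909, 920.3 and 1218 CPM in the naproxen wells. The vehicle wells lay at 111 to 149.6 CPM (median 134). In batch 2 the values were 5.41, 5.56 and 9.37 CPM with diclofenac, 144, 254 and 342 CPM with indomethacin and 713, 807 and 1097 CPM with naproxen, with vehicle at 44.7 to 50.8 CPM (median 47.6). Every diclofenac well was thus below, and every indomethacin and naproxen well above, the vehicle wells of its batch. The diclofenac minus indomethacin L2FC was -5.34 ± 0.22 (adjusted p = 5.36e-32) in batch 1 and -5.19 ± 0.35 (adjusted p = 3.75e-22) in batch 2, and the diclofenac minus naproxen L2FC was -6.27 ± 0.23 (adjusted p = 6.06e-35) in batch 1 and -7.02 ± 0.37 (adjusted p = 5.9e-28) in batch 2. Dhrs7 itself had L2FCs of -4.68 and -5.07 against indomethacin and -5.36 and -6.61 against naproxen; how far the 2 probes tell these related genes apart is uncertain.

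Urad, the last enzyme on the way from urate to allantoin, was read at 1.64, 4.78 and 3.24 CPM with diclofenac, 122, 145 and 141 with indomethacin and 74.2, 71.4 and 71.3 with naproxen in batch 1, and at 0.738, 0.484 and 0.699 CPM with diclofenac, 68.0, 79.4 and 78.2 CPM with indomethacin and 83.1, 85.6 and 75.9 CPM with naproxen in batch 2. Vehicle wells, at 25.2 to 37.8 CPM (median 36.2) in batch 1 and 10.4 to 17.7 CPM (median 13.3) in batch 2, again lay between diclofenac and the other drugs. A1cf, a cofactor of apolipoprotein B mRNA editing, had diclofenac minus indomethacin L2FCs of -4.85 and -5.02 and diclofenac minus naproxen L2FCs of -4.44 and -5.75. Slc6a13, a transporter of GABA and taurine, differed by -4.36 and -5.07 from indomethacin and by -4.88 and -5.69 from naproxen. Cyp2b1, the classical phenobarbital-inducible P450 of rat liver, was at 0 or 1 count in every diclofenac well, at 8.42, 5.01 and 6.67 CPM in batch 1 and 2.90, 2.78 and 2.93 CPM in batch 2 with indomethacin and at 2.78, 5.88 and 14.1 CPM in batch 1 and 2.90, 3.13 and 3.36 CPM in batch 2 with naproxen. In batch 2, where no diclofenac well held a read, the other drugs were at least 7.48-fold and 8.15-fold higher, against a floor of 3 counts per well that covers counting error only. Vehicle wells too held at most 3 counts of Cyp2b1 in either batch. The gap thus lies in reads above vehicle with indomethacin and naproxen, and no fall below vehicle with diclofenac can be read. Where a group held at most 3 counts per well, as here, fitted L2FCs depend on the added prior count and are no measure of the fold. Reads of Cyp2b1 and its near-identical copy Cyp2b2 may not be separable.

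Diclofenac-high probes were fewer: 203 of the 227 were above vehicle with diclofenac in both batches (23% of all tested probes were), against 32 with indomethacin and 44 with naproxen (14% and 13.6% of all tested probes). Tspan13, a membrane protein of the tetraspanin family, was read at 67.9, 56.9 and 83.9 CPM with diclofenac in batch 1 and at 51.1, 67.8 and 71.9 CPM in batch 2. Indomethacin wells were at 2.30, 3.22 and 3.17 CPM in batch 1 and 5.05, 4.16 and 3.71 CPM in batch 2. Naproxen wells were at 5.29, 5.16 and 3.28 CPM in batch 1 and 7.39, 7.50 and 2.72 CPM in batch 2, and vehicle wells at 3.14 to 3.95 CPM (median 3.41) in batch 1 and 1.91 to 4.57 CPM (median 3.09) in batch 2. Diclofenac wells stood far above the others, with an L2FC against vehicle of 4.29 and 4.32, while the wells of the other drugs lay at or little above vehicle (-0.28 and 0.44 with indomethacin and 0.37 and 0.86 with naproxen, of which the last was called). Indomethacin minus naproxen was not called (-0.65 ± 0.31, 95% interval -1.26 to -0.04, and -0.42 ± 0.31, -1.04 to 0.20). Ank2, an ankyrin that anchors membrane proteins to the cytoskeleton, had diclofenac minus indomethacin L2FCs of 6.23 ± 0.40 and 3.49 ± 0.34, and indomethacin too was above vehicle in batch 2 (L2FC 3.27). Slc2a13, a proton-coupled inositol transporter, had diclofenac minus indomethacin L2FCs of 3.43 and 2.95 and diclofenac minus naproxen L2FCs of 3.42 and 3.36. Tmod1, which caps actin filaments, was above vehicle with diclofenac (L2FC 1.58 and 1.62) and below it with indomethacin (-2.86 and -1.70) and naproxen (-1.46 and -2.05). Plcxd2, a phospholipase C-like protein, differed from indomethacin by 3.34 and 3.27 and from naproxen by 3.77 and 3.33. Ipcef1, at no more than 3 counts in any vehicle well, differed by 4.80 and 2.93 from indomethacin and by 5.18 and 4.76 from naproxen. Its call was lost when each drug in batch 2 was first set against the vehicle wells of its own plate, at a smallest diclofenac minus other drug L2FC of 2.66.

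**Figure D2:**
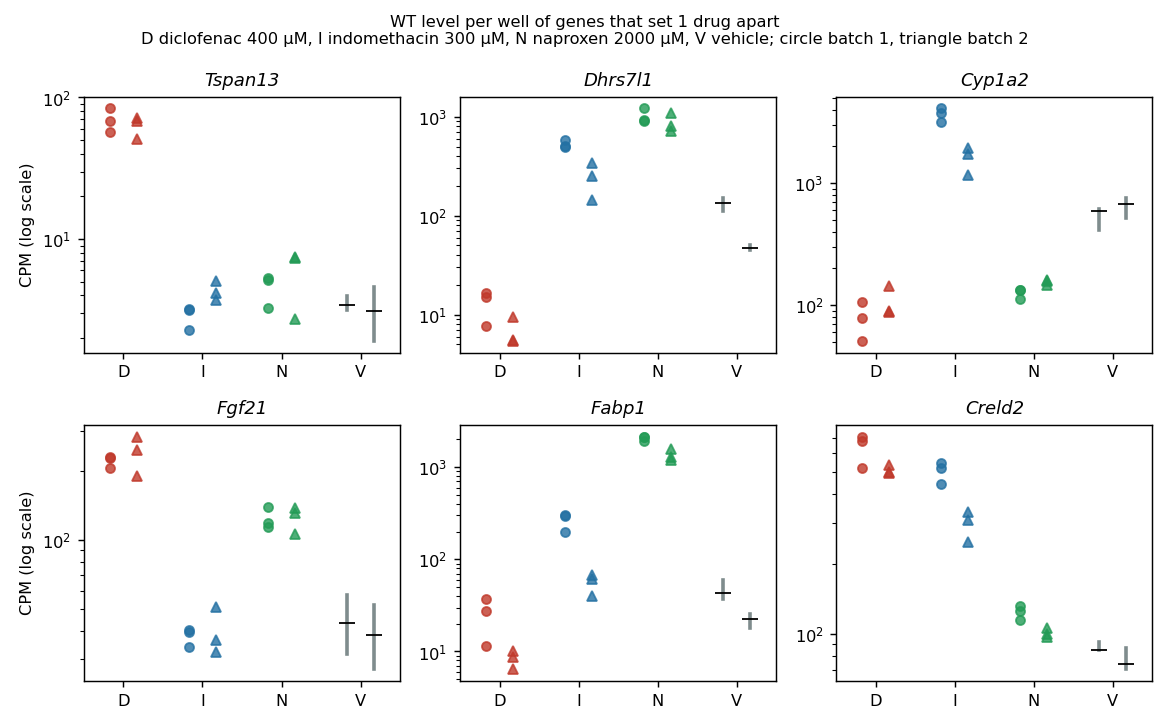
WT levels of 6 genes set apart by diclofenac (Tspan13, Dhrs7l1), indomethacin (Cyp1a2, Fgf21) or naproxen (Fabp1, Creld2), on log CPM axes. Each symbol is 1 well (circles batch 1, triangles batch 2), D, I and N stand for the drugs, and the line of each batch at the vehicle runs from its lowest to its highest well with a tick at the median. For each gene the wells of 1 drug stand apart from those of the other two in both batches.

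Of the genes set apart as higher with indomethacin, the first by the rule was Cyp1a2, a P450 under the control of the aryl hydrocarbon receptor (AhR). Its indomethacin wells gave 3180.2, 3746 and 4106 CPM in batch 1 and 1165, 1744 and 1928 CPM in batch 2. Diclofenac wells gave 50.8, 77.8 and 106 CPM in batch 1 and 143, 88.9 and 87.8 CPM in batch 2, and naproxen wells 132, 134 and 113 CPM in batch 1 and 161, 159 and 146 CPM in batch 2. Vehicle wells ran from 413 to 608 CPM (median 592) and from 520.2 to 756 CPM (median 668), so that indomethacin wells lay above, and the wells of the other drugs below, all vehicle wells. The indomethacin minus naproxen L2FC was 4.86 ± 0.30 (adjusted p = 7.79e-23) in batch 1 and 3.38 ± 0.23 (adjusted p = 1.99e-21) in batch 2, and diclofenac minus indomethacin -5.55 and -3.92. Cyp1a1, the other main AhR target among the P450s, had an indomethacin minus naproxen L2FC of 2.99 and 1.46 and a diclofenac minus indomethacin L2FC of -6.12 and -5.33. At 12 µM indomethacin Cyp1a2 averaged 1309.9 and 957 CPM in batches 1 and 2, at 16 µM diclofenac 914 and 819 and at 80 µM naproxen 747 and 601.

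Of the 112 probes higher with indomethacin, 37 were above and 17 below vehicle with indomethacin (14% and 15.1% of all tested probes were), while 97 were below vehicle with diclofenac (26.2%) and 74 with naproxen (15%). Etnppl, which breaks down phosphoethanolamine, was read at 40.8, 34.5 and 45.3 CPM in batch 1 and 34.5, 32.6 and 36.9 CPM in batch 2 with indomethacin, at 3.06, 4.44 and 3.28 CPM in batch 1 and 4.63, 4.06 and 3.23 CPM in batch 2 with naproxen, and at 0.598, 0.819 and 0.463 CPM in batch 1 and 0.615, 0.605 and 0.699 CPM in batch 2 with diclofenac. Its vehicle medians were 8.14 and 9.74 CPM, between indomethacin and naproxen. Car5a, the mitochondrial carbonic anhydrase that serves the urea cycle, had indomethacin minus naproxen L2FCs of 3.73 and 2.79, and Cyp2c24, a P450 of the CYP2C family, 3.41 and 2.79. St8sia1, a sialyltransferase of ganglioside synthesis, had 2.90 and 2.95 although indomethacin left it at or below vehicle (L2FC -0.20 and -0.83, the second called). Slc10a1, the sodium-dependent bile acid importer NTCP, was read at 2.68, 2.69 and 2.00 CPM in batch 1 and 1.39, 2.40 and 2.47 CPM in batch 2 with indomethacin, at 0.139, 0.143 and 0 CPM in batch 1 and 0.434, 0.313 and 0.647 CPM in batch 2 with naproxen and at 0.149, 0.683 and 0.154 CPM in batch 1 and 0.369, 0.242 and 0.140 CPM in batch 2 with diclofenac, the values of naproxen and diclofenac being a few counts per well.

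On the lower side, Fgf21, a stress-induced hepatokine that is a target of both PPARα and ATF4, was raised by the other drugs and not by indomethacin. Its levels in batch 1 were 207, 230.4 and 228 CPM with diclofenac, 34.1, 39.7 and 40.3 CPM with indomethacin and 139, 119 and 114 CPM with naproxen, with vehicle at 31.5 to 57.7 CPM (median 43.3). In batch 2 they were 190.0, 248 and 284 CPM with diclofenac, 50.7, 36.5 and 32.4 CPM with indomethacin and 138, 132 and 106 CPM with naproxen, with vehicle at 27.2 to 52.0 CPM (median 38.3). Indomethacin wells fell within the vehicle range and all wells of the other drugs above it. Indomethacin minus naproxen was -1.70 ± 0.23 (adjusted p = 2.86e-09) in batch 1 and -1.65 ± 0.19 (adjusted p = 1.26e-11) in batch 2, and diclofenac minus naproxen was also called (0.84 and 0.94). Dgkh, a diacylglycerol kinase, had indomethacin minus naproxen L2FCs of -2.70 and -1.68, and Arhgap28, a GTPase-activating protein, of -1.93 and -1.61. Orc1, a subunit of the origin recognition complex, Rab15, a GTPase of endosome traffic, and Nek2l1, a kinase related to Nek2, were at low counts, with indomethacin means of 0.235 and 0.294 CPM for Orc1, 0.115 and 0.468 CPM for Rab15 and 0.521 and 0.248 CPM for Nek2l1. The fitted L2FCs of Orc1 and Rab15 rest on at most 3 counts per indomethacin well in batch 1 and so depend on the prior count. Leaving out 1 well lost the call of each of these 3 genes: for Orc1 without any of 4 wells, for Nek2l1 without any of 4 and for Rab15 without either of 2, down to smallest indomethacin minus other drug L2FCs of -1.51, -1.35 and -1.09. Those were, for Orc1, indomethacin replicates 1 and 3 of batch 1, indomethacin replicate 3 and diclofenac replicate 1 of batch 2. For Nek2l1 they were indomethacin replicates 1 and 2 and naproxen replicates 1 and 3 of batch 1, and for Rab15 indomethacin replicate 2 and naproxen replicate 1 of batch 2. With vehicle wells of the own plate in batch 2, the calls of Dgkh, Nek2l1 and Rab15 were lost as well, at smallest indomethacin minus other drug L2FCs of -1.70, -1.71 and -1.04 against -1.68, -1.71 and -1.67 with the drug wells compared directly.

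The genes named as higher with naproxen included Fabp1 and Acot1, which handle fatty acids. Fabp1, the liver fatty acid binding protein, was read at 2152, 1906 and 2103 CPM with naproxen in batch 1 and at 1279, 1196 and 1581 CPM in batch 2. Indomethacin wells were at 198, 304 and 293 CPM in batch 1 and 61.0, 68.3 and 39.5 CPM in batch 2, diclofenac wells at 11.4, 37.4 and 27.4 CPM in batch 1 and 8.73, 6.41 and 10.2 CPM in batch 2, and vehicle wells at 36.9 to 60.3 CPM (median 42.9) in batch 1 and 17.9 to 25.3 CPM (median 22.4) in batch 2. The order naproxen, indomethacin, vehicle, diclofenac held in both batches; in batch 1 the highest diclofenac well lay just above the lowest vehicle well, and no other groups overlapped. Diclofenac minus naproxen was -6.33 ± 0.25 (adjusted p = 1.3e-32) in batch 1 and -7.33 ± 0.31 (adjusted p = 4.13e-33) in batch 2, and indomethacin minus naproxen -2.96 and -4.58. Acot1, a cytosolic acyl-CoA thioesterase, was at most 1 count in every vehicle well and was read at 324, 311 and 376 CPM in batch 1 and 314, 301 and 282 CPM in batch 2 with naproxen, 14.5, 14.3 and 21.5 CPM in batch 1 and 13.5, 19.1 and 20.4 CPM in batch 2 with indomethacin, and 3.89, 8.46 and 5.86 CPM in batch 1 and 1.97, 3.39 and 2.66 CPM in batch 2 with diclofenac. All drug wells thus lay above all vehicle wells, and the naproxen wells above all others. The call of Acot1 against indomethacin was lost with vehicle wells of the own plate in batch 2, where the smallest naproxen minus other drug L2FC was 4.32 against 4.09 without them. The PPARα agonist WY14643, a reference treatment of the same study at 200 µM, gave 958 and 785 CPM of Acot1 and 9865 and 4574 CPM of Fabp1 in batches 1 and 2. At 80 µM naproxen Fabp1 averaged 356 and 89.3 CPM, at 12 µM indomethacin 88.3 and 32.5 and at 16 µM diclofenac 76.1 and 28.3.

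The other genes named as higher with naproxen were Slc34a2, a sodium-phosphate cotransporter, with diclofenac minus naproxen L2FCs of -6.07 and -7.54 and indomethacin minus naproxen L2FCs of -3.08 and -3.01, and Serpine2, a serine protease inhibitor, with -5.16 and -5.26 against diclofenac and -2.90 and -3.20 against indomethacin. Mmp13, a collagenase, was read at 55.6, 56.6 and 54.9 CPM in batch 1 and 35.0, 39.5 and 31.9 CPM in batch 2 with naproxen, at 2.30, 1.25 and 2.00 CPM in batch 1 and 1.01, 1.39 and 3.09 CPM in batch 2 with indomethacin and at 3.59, 1.77 and 3.24 CPM in batch 1 and 2.09, 0.726 and 1.40 CPM in batch 2 with diclofenac. No vehicle well of batch 1 held a read of it. Krt23, a keratin, reached no more than 8 counts in any naproxen well of batch 2, and its call was lost with vehicle wells of the own plate in batch 2 (smallest naproxen minus other drug L2FC 3.30) and without naproxen replicate 1 or indomethacin replicate 1 of that batch (2.27 and 2.76). These fitted values depend on the prior count, since no diclofenac or indomethacin well held more than 1 count of Krt23. Of all 113 probes higher with naproxen, 74 were above vehicle with naproxen in both batches (13.6% of all tested probes were). With indomethacin 35 were above and 41 below vehicle, and with diclofenac 15 and 51, where 14% and 15.1% of all tested probes were above and below with indomethacin and 23% and 26.2% with diclofenac.

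Only 16 probes, of 15 genes, were set apart as lower with naproxen, and the 6 named include the endoplasmic reticulum (ER) proteins Hspa5 and Creld2 and the amino acid enzymes Pycr1 and Gcat. With diclofenac 12 of the 16 were above vehicle in both batches (23% of all tested probes were) and with indomethacin 10 (14%), while with naproxen 3 were above it (13.6%), 5 below it (15%) and 8 not called. Pycr1, which makes proline, was read at 11.7, 14.8 and 16.0 CPM in batch 1 and 20.7, 17.3 and 18.2 CPM in batch 2 with naproxen, at 53.2, 43.7 and 46.5 CPM in batch 1 and 52.2, 50.7 and 64.3 CPM in batch 2 with indomethacin and at 118, 101 and 131 CPM in batch 1 and 72.6, 88.4 and 87.6 CPM in batch 2 with diclofenac. Its vehicle wells, at 42.7 to 44.5 CPM (median 43.6) in batch 1 and 30.3 to 38.8 CPM (median 32.6) in batch 2, lay above the naproxen and below the diclofenac wells. Gcat, which splits the product of threonine oxidation, had diclofenac minus naproxen L2FCs of 2.30 and 1.34, and Bdh2, a short-chain dehydrogenase, 2.31 and 1.39. Fam169a, whose role is little known, averaged 5.72 and 3.92 CPM with diclofenac, 3.61 and 7.04 with indomethacin and 1.08 and 1.37 with naproxen. Bdh2 lost its call without naproxen replicate 3 of batch 2 (smallest naproxen minus other drug L2FC -0.91).

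The ER chaperone list gave the pattern in more detail. These proteins fold secreted and membrane proteins, and ATF6 and XBP1 raise many of them in the unfolded protein response through the ER stress response element (ERSE), whose letters are CCAAT and CCACG with any 9 bases between. Of 19 tested genes, 11 were higher with diclofenac than with naproxen and 10 with indomethacin than with naproxen, with none lower in either pair, at median L2FCs of 0.82 and 0.74 for the first pair and 1.05 and 0.36 for the second. Of all tested probes 15.9% and 7.42% were higher in these pairs and 19.4% and 7.66% lower. Between diclofenac and indomethacin 2 were higher and 2 lower (medians -0.21 and 0.26), below the 16.7% and 19.5% of all tested probes. Against vehicle, 15 of the 19 were higher with diclofenac, 15 with indomethacin and 8 with naproxen, where 23%, 14% and 13.6% of all tested probes were. The genes set apart as lower with naproxen were Hspa5, Hsp90b1, Calr and Creld2. Creld2, a secreted ER stress protein, was read at 709, 519.9 and 675 CPM with diclofenac, 517, 442 and 542 CPM with indomethacin and 114, 132 and 125 CPM with naproxen in batch 1, and at 494, 501 and 535 CPM with diclofenac, 309, 249.8 and 335 CPM with indomethacin and 96.7, 106 and 99.7 CPM with naproxen in batch 2. Vehicle wells were at 85.0 to 92.1 CPM (median 85.4) in batch 1 and 70.4 to 87.2 CPM (median 74.1) in batch 2, so that naproxen wells lay above vehicle by far less than those of the other drugs. The diclofenac minus naproxen L2FC of Creld2 was 2.36 ± 0.16 (adjusted p = 2.3e-21) in batch 1 and 2.34 ± 0.13 (adjusted p = 1.37e-25) in batch 2.

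Hspa5 (BiP), the main Hsp70 of the ER, gave 114, 106 and 77.5 CPM with diclofenac, 162, 115 and 68.8 CPM with indomethacin and 21.6, 25.9 and 27.1 CPM with naproxen in batch 1, and 127, 76.8 and 73.6 CPM with diclofenac, 32.8, 79.4 and 157 CPM with indomethacin and 19.3, 19.1 and 37.1 CPM with naproxen in batch 2. Indomethacin wells were spread widely, and 1 of them fell below the highest naproxen well in batch 2. Without indomethacin replicate 3 of batch 2 the call was lost (smallest naproxen minus other drug L2FC -1.15). Hsp90b1, the Hsp90 of the ER, averaged 2278 and 1923 CPM with diclofenac in batches 1 and 2, 2682 and 1550.2 with indomethacin, 537 and 632 with naproxen and 678 and 723 in vehicle wells. Calr, the lectin chaperone calreticulin, averaged 669.6 and 639 CPM with diclofenac, 773 and 648 with indomethacin, 243 and 313 with naproxen and 337 and 305 in vehicle wells. Edem1, which takes misfolded glycoproteins out for breakdown, went another way: diclofenac minus indomethacin was -1.68 and -1.63 and indomethacin minus naproxen 1.57 and 0.86, with diclofenac below vehicle.

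The promoters of these 4 genes are shown because all of them hold the ERSE letters within the 250 bases before the RefSeq gene start (rat build GRCr8), each in lower case with the match, on either strand, in capitals. In order they lie at chr3:38452766-38453015, plus strand, at chr7:23012294-23012543, minus strand, at chr19:40213117-40213366, plus strand and at chr7:121789134-121789383, plus strand.
Hspa5: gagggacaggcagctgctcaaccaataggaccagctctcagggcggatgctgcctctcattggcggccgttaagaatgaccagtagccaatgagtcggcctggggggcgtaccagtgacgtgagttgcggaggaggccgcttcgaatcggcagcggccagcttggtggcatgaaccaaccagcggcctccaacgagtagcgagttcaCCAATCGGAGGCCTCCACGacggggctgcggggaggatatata
Hsp90b1: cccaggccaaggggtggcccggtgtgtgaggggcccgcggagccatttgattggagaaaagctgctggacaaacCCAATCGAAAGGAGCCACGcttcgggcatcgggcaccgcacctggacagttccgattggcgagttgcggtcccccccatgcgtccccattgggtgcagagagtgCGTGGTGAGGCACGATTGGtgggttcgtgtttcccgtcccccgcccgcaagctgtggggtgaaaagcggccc
Calr: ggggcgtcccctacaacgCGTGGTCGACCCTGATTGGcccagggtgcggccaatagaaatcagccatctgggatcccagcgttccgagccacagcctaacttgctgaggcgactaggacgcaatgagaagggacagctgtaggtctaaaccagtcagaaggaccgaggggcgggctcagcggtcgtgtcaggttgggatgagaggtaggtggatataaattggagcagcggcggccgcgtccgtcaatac
Creld2: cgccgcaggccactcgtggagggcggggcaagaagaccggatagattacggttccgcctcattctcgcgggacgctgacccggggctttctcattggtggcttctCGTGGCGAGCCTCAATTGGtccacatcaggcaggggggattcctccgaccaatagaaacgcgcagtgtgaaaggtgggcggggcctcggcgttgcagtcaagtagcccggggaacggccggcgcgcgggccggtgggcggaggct

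The match begins 43 bases before the start in Hspa5, 232 bases before it in Calr and 145 in Creld2, and Hsp90b1 has 2 matches, at 176 and 72 bases. Over all 33469 rat promoter windows of that table the letters occur in 22 (0.0657%). Of the 19 tested ER chaperone genes 17 had a promoter entry, and 7 of those hold the letters: these 4 and Canx, Dnajc3 and Xbp1. Of the 7, 5 were higher in diclofenac minus naproxen and 5 in indomethacin minus naproxen. Of the 10 without a match 5 and 3 were higher, and none was set apart by naproxen. The motif was chosen after the values were seen, and a match describes letters in this window only. The amino acid response letters TGATGNAAT, which occur in 316 promoters (0.944%), were found in Fgf21 and Pycr1 alone among 26 stress response genes with an entry, and the PPAR response letters, AGGTCA repeated with 1 base between, in 17 promoters (0.0508%), in none of 35 fatty acid genes.

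**Figure D3:**
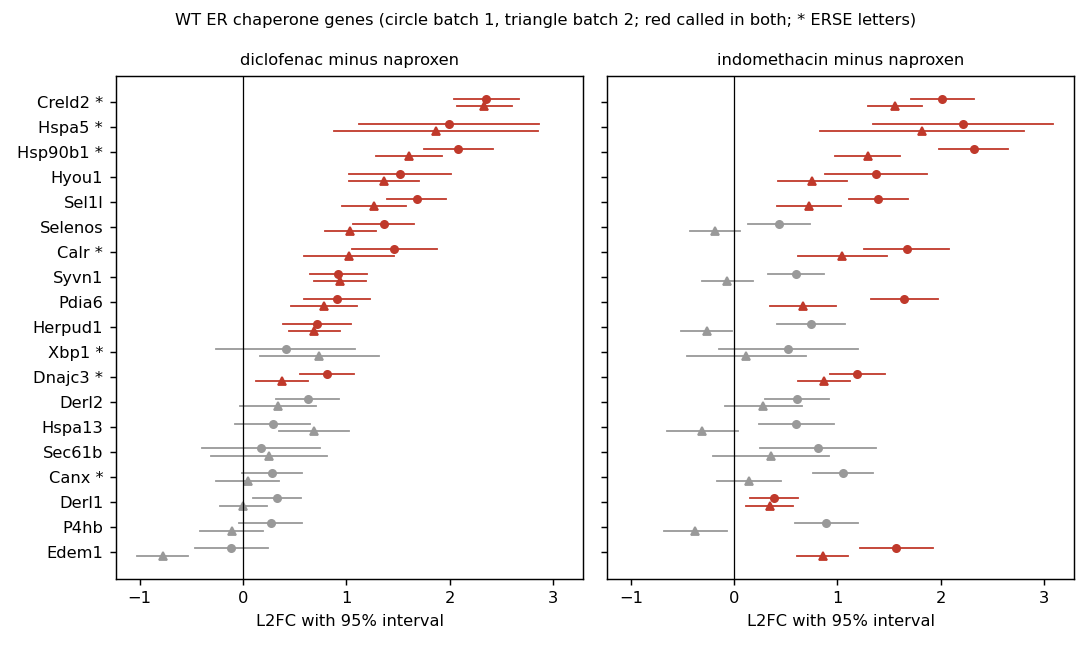
L2FC with 95% interval of the 19 tested ER chaperone genes for diclofenac minus naproxen and indomethacin minus naproxen, in batch 1 and batch 2. Red marks genes called in both batches in the same direction, and an asterisk marks genes whose promoter holds the ERSE letters; 11 and 10 genes were called, all on the higher side.

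Genes common to the class were few under the rule used here, and their number depends on that rule. They had to be called in the mean of the 3 drugs against vehicle with an absolute L2FC of at least 1 in both batches, and the 95% interval of each pairwise difference had to lie between -1 and 1 in both. This held for 18 (0.168%) probes above vehicle, of 17 genes, and 24 (0.225%) below, of 22 genes, out of 2123 (19.9%) and 2397 (22.4%) called in the class mean. Of these 42 probes, 40 (0.374%) also differed in the same direction from the mean of the other 11 chemicals at their higher concentrations. In that contrast 22.2% of all tested probes were higher and 22.5% lower in both batches. The 42 were chosen from the same drug wells, so their count only describes them and shows no specificity for the class. Small differences between drugs within that limit could still be called. With both batches in 1 fit 187 probes were common, and 397 when each drug was called against vehicle with no limit on the intervals.

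Trib3, a pseudokinase induced by ATF4 and CHOP, led the genes raised by all 3 drugs. It was read at 454, 387 and 445 CPM with diclofenac, 295, 273 and 332 CPM with indomethacin and 326, 349.7 and 355 CPM with naproxen in batch 1, and at 382, 360.0 and 357 CPM with diclofenac, 248, 226 and 347 CPM with indomethacin and 304, 298 and 257 CPM with naproxen in batch 2. All 18 wells lay above the vehicle wells, at 74.3 to 79.1 CPM (median 77.9) in batch 1 and 46.8 to 63.0 CPM (median 54.7) in batch 2, and the indomethacin and naproxen wells overlapped. The class mean minus vehicle was 2.20 ± 0.13 (adjusted p = 2.35e-23) in batch 1 and 2.51 ± 0.10 (adjusted p = 4.24e-36) in batch 2. Indomethacin minus naproxen had 95% intervals of -0.48 to 0.08 and -0.33 to 0.20, and diclofenac minus indomethacin, which was called, of 0.23 to 0.79 and 0.15 to 0.69. By its ST probe, whose intervals for that pair were 0.41 to 1.06 and 0.77 to 1.42, Trib3 did not meet the limit on the intervals. Insig1, which holds the sterol sensor SCAP in the ER, was read at 2631, 2596 and 2920.2 CPM with diclofenac, 2867, 2521 and 2403 CPM with indomethacin and 3081, 2900.4 and 2788 CPM with naproxen in batch 1, where vehicle wells were at 603 to 696 CPM (median 688). In batch 2 it was read at 2374, 2463 and 2461 CPM with diclofenac, 3021, 3632 and 3461 CPM with indomethacin and 3766, 3903 and 3770.0 CPM with naproxen, with vehicle at 561 to 995 CPM (median 657). Its diclofenac minus naproxen L2FC was not called in batch 1 (-0.11, interval -0.35 to 0.13) and was called in batch 2 (-0.65 ± 0.18).

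Cebpb, a transcription factor of hepatocytes and of stress responses, rose by a class mean L2FC of 1.58 ± 0.16 and 1.53 ± 0.09. Gfer, a sulfhydryl oxidase of mitochondrial protein import, rose by 1.58 and 1.32, and Tmem62, a membrane protein of little known role, by 1.12 and 1.30. WY14643 at 200 µM also left these genes above their vehicle means, with Trib3 at 147 and 106 CPM, Insig1 at 3371 and 3823 and Cebpb at 81.0 and 105 CPM in batches 1 and 2.

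Among the genes lowered by all 3 drugs, Slc22a8, the organic anion transporter OAT3, was read at 21.8, 19.2 and 22.2 CPM with diclofenac, 28.3, 25.8 and 34.8 CPM with indomethacin and 33.0, 30.7 and 25.7 CPM with naproxen in batch 1, and at 26.8, 28.4 and 27.7 CPM with diclofenac, 31.3, 41.4 and 48.0 CPM with indomethacin and 46.6, 40.5 and 41.4 CPM with naproxen in batch 2. Vehicle wells were at 158 to 178 CPM (median 172) in batch 1 and 220.3 to 269.7 CPM (median 243) in batch 2, far above every drug well. The class mean minus vehicle was -2.68 ± 0.13 (adjusted p = 5.31e-29) in batch 1 and -2.76 ± 0.09 (adjusted p = 2.32e-39) in batch 2, and indomethacin minus naproxen had intervals of -0.37 to 0.36 and -0.40 to 0.21. At the low concentrations Slc22a8 averaged 138 and 157 CPM with 16 µM diclofenac, 114 and 131 with 12 µM indomethacin and 102 and 148 with 80 µM naproxen. Ahnak, a giant scaffold protein under the plasma membrane, had a class mean L2FC of -2.37 and -2.46, and Sesn3, a sestrin, -1.99 and -1.81. By their ST probes Ahnak and Serpinh1 were below vehicle with each drug but did not meet the limit on the intervals. Serpinh1, the collagen chaperone HSP47, averaged 2.90 and 3.25 CPM with diclofenac, 3.78 and 3.36 with indomethacin, 3.58 and 3.88 with naproxen and 13.6 and 22.7 in vehicle wells. The summed stellate cell markers moved the same way: their median was 628 and 401 CPM in vehicle wells of batches 1 and 2 against 241 and 106 with diclofenac, 309 and 134 with indomethacin and 376 and 196 with naproxen. Serpinh1 is also expressed by stellate cells, and the part of those cells in its fall was not tested.

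Most tested fatty acid oxidation genes that PPARα controls were lower with diclofenac than with either of the other drugs. Of 45 tested genes (60 listed), 41 were lower with diclofenac than with naproxen, 35 lower with diclofenac than with indomethacin and 26 lower with indomethacin than with naproxen, with 1 higher in each pair. The median L2FC was -2.40 and -2.97 for diclofenac minus naproxen, -1.49 and -1.76 for diclofenac minus indomethacin and -0.59 and -1.01 for indomethacin minus naproxen. Against vehicle, 43 were higher with naproxen, 36 with indomethacin and 14 with diclofenac, where 11 were lower. Over all tested probes 13.6%, 14% and 23% were higher, and 26.2% lower with diclofenac, and the counts with diclofenac lay near these shares. Ehhadh, the bifunctional enzyme of peroxisomal oxidation, averaged 658 ± 64.8 and 503 ± 48.3 CPM (SD, n = 3 wells) with naproxen, 151 ± 29.6 and 70.5 ± 16.4 with indomethacin, 12.4 ± 2.17 and 3.67 ± 1.48 with diclofenac, and 1.88 and 1.63 in vehicle wells of batches 1 and 2. All 3 drugs were above vehicle, at L2FCs of 8.37 and 8.26 with naproxen, 6.24 and 5.42 with indomethacin and 2.63 and 1.15 with diclofenac. Cyp4a2, a fatty acid omega-hydroxylase with close copies in its family, had diclofenac minus naproxen L2FCs of -4.44 and -6.29 and indomethacin minus naproxen L2FCs of -0.87 and -1.87. The 200 µM WY14643 means were 2492 and 2036 CPM for Ehhadh and 13686 and 8972 CPM for Cyp4a2. Ucp2, a mitochondrial carrier of the mitochondrial stress list, was higher with naproxen than with the other drugs, with indomethacin minus naproxen at -2.82 and -2.25 and diclofenac minus naproxen at -1.83 and -2.15.

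Enzymes that handle acidic drugs separated diclofenac from the others. Of 16 tested genes of drug conjugation, which join the acid to glucuronic acid, coenzyme A or amino acids or supply these reactions, 15 were lower with diclofenac than with indomethacin and 11 than with naproxen, none was higher, and 5 were higher and 1 lower with indomethacin than with naproxen (medians -3.01 and -2.92 for the first, -1.66 and -2.53 for the second and 0.75 and 0.47 for the last pair). Over all tested probes 19.5% and 19.4% were lower in the pairs with diclofenac and 16.7% and 15.9% higher. In the last pair 7.42% were higher and 7.66% lower. Acsl1, which activates long-chain fatty acids, averaged 233 and 81.0 CPM with diclofenac, 1822 and 1039 with indomethacin, 3065 and 2967 with naproxen and 128 and 142 in vehicle wells. Glyatl2, of the glycine N-acyltransferase family, averaged 1.78 and 0.869 CPM with diclofenac, 33.3 and 12.9 with indomethacin, 9.82 and 9.19 with naproxen and 12.5 and 8.74 in vehicle wells. Glyat, which joins acyl-CoA to glycine, was at no more than 2 counts in any diclofenac well, against 3.41 and 2.32 CPM with indomethacin, and Acsm5, a medium-chain acyl-CoA synthetase, averaged 0.442 and 0.0869 CPM with diclofenac, 4.88 and 2.30 with indomethacin and 3.07 and 1.98 with naproxen.

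P450 and related oxidation genes followed: of 23 tested, 20 were lower with diclofenac than with indomethacin and 19 than with naproxen, and 10 were higher and 1 lower with indomethacin than with naproxen (medians -2.76 and -2.22 for the first, -1.75 and -1.89 for the second and 0.82 and 0.21 for the last pair). For these and the next lists, 16.7% of all tested probes were higher and 19.5% lower in the first pair. The shares were 15.9% and 19.4% in the second pair and 7.42% and 7.66% in the last. Counts near these shares are no result about a list. Cyp2b2 averaged 10.3 and 2.54 CPM with diclofenac, 249 and 151 with indomethacin, 72.2 and 59.9 with naproxen and 3.67 and 2.09 in vehicle wells, with the caution on its copy Cyp2b1 given above. Of 10 AhR targets, 3 were higher and 0 lower with indomethacin than with naproxen, while diclofenac was lower at 7 and 6 and higher at 1 and 1. Aldh3a1, an aldehyde dehydrogenase of that list, had indomethacin minus naproxen L2FCs of 1.15 and 0.78, called in batch 1 only. Of 14 hepatic transporters, 10 were lower and 2 higher in diclofenac minus indomethacin, 5 and 2 in diclofenac minus naproxen, and 1 and 6 in indomethacin minus naproxen. Of these, the 2 higher in each pair with diclofenac and the 1 lower in the last lay near the shares over all tested probes. Abcb11, the bile salt export pump, averaged 41.7 and 35.9 CPM with diclofenac, 279 and 267 with indomethacin, 99.3 and 169 with naproxen and 76.7 and 124 in vehicle wells, so that indomethacin raised it (L2FC against vehicle 1.86 and 1.10). Slc22a7, the anion transporter OAT2, had diclofenac minus naproxen L2FCs of -2.46 and -2.20, and Abcc6, an efflux pump at no more than 3 counts in any diclofenac well, averaged 1.05 and 2.73 CPM with indomethacin and 1.52 and 1.59 with naproxen. Of 10 bile acid genes, 8 were lower with diclofenac in each of its pairs and none was higher. Acox2, which shortens the side chain of bile acid precursors, had indomethacin minus naproxen L2FCs of 3.09 and 1.80, and the others named there were Akr1d1, a steroid reductase (0.78 and -0.09), Fgfr4, the receptor of FGF19-type signals (-0.38 and -0.83), and Nr5a2, the nuclear receptor LRH-1 (0.22 and 0.16).

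**Figure D4:**
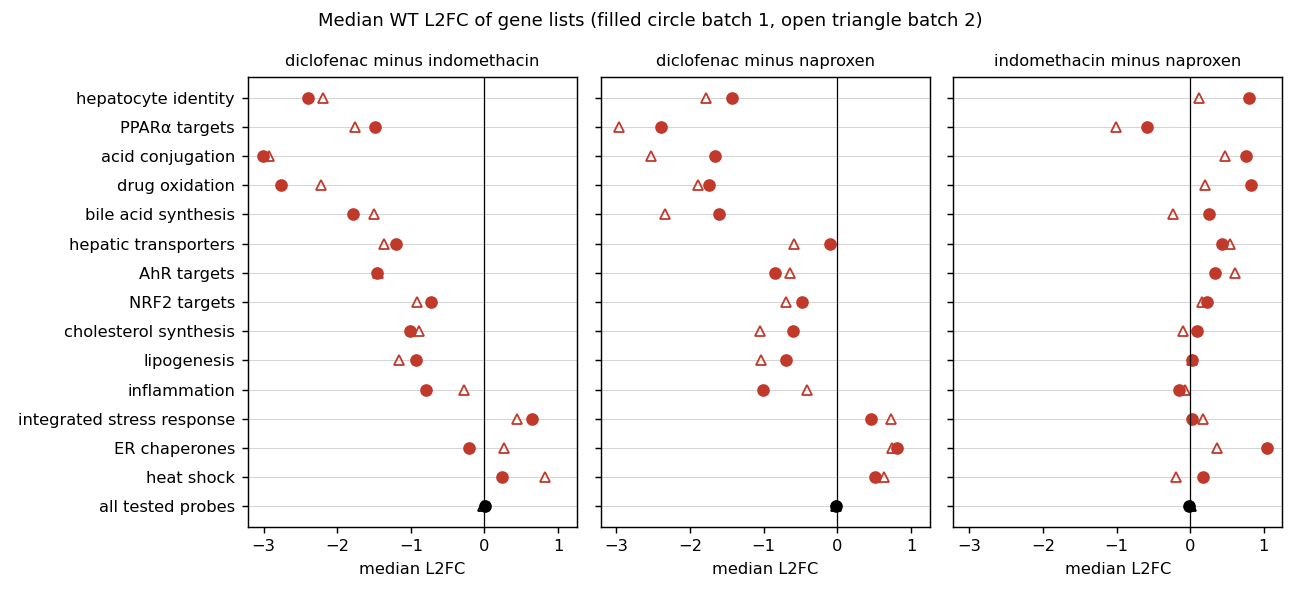
Median L2FC of the tested members of 14 gene lists and of all tested probes, in 1 panel per pair of drugs, with filled circles for batch 1 and open triangles for batch 2. Hepatocyte, conjugation, oxidation and fatty acid lists lie below 0 in both pairs with diclofenac, while the ER chaperone list lies above 0 in both pairs with naproxen.

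Of 36 tested genes of the integrated stress response, the program of ATF4 and CHOP that answers amino acid shortage and ER stress, 19 were higher and 6 lower with diclofenac than with indomethacin, 18 and 4 than with naproxen, and 7 were higher and 4 lower with indomethacin than with naproxen (medians 0.65 and 0.44 for the first, 0.46 and 0.73 for the second and 0.02 and 0.17 for the last pair). Shares over all tested probes were 16.7% higher and 19.5% lower for the first pair, 15.9% and 19.4% for the second and 7.42% and 7.66% for the last. Counts near or below them, as of the genes lower with diclofenac, are no result about the list. Against vehicle 25 were higher with diclofenac, 17 with indomethacin and 15 with naproxen, where 23%, 14% and 13.6% of all tested probes were. Ddit3, which encodes CHOP, averaged 2312 ± 209 and 1635 ± 63.5 CPM with diclofenac, 339 ± 27.6 and 439.6 ± 90.9 with indomethacin, 255 ± 22.0 and 261 ± 17.3 with naproxen, and 25.2 and 27.3 in vehicle wells. It was above vehicle with all 3 drugs and called in all 3 pairs in both batches, with diclofenac minus naproxen at 3.18 ± 0.14 (adjusted p = 1.98e-30) in batch 1 and 2.64 ± 0.16 (adjusted p = 9.48e-24) in batch 2. Atf3, a stress-induced transcription factor, was raised by diclofenac alone, with L2FCs against vehicle of 1.96 and 3.12, against -0.86 and -0.14 with indomethacin and -0.27 and -0.06 with naproxen. Cth, which makes cysteine from cystathionine and is also a hepatocyte enzyme, was lower with diclofenac than with indomethacin (-2.78 and -2.87).

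Of 13 heat shock genes tested, 5 were higher and 0 lower than with indomethacin, 6 higher and 1 lower than with naproxen, and none was called in both batches between indomethacin and naproxen, at medians of 0.18 and -0.19. Hspb1, the small heat shock protein HSP27, had diclofenac minus indomethacin L2FCs of 2.32 and 1.04, and Hspa4 and Hspa4l, of the Hsp110 family, had 0.99 and 1.43 and, in turn, 1.72 and 1.30. Hspa2, an Hsp70 at low counts, averaged 1.02 and 2.57 CPM with diclofenac and 0.239 and 0.627 with indomethacin, and lost its call without any of 4 single wells of batch 1 (diclofenac replicates 1 and 3, indomethacin replicates 2 and 3), with a smallest fitted L2FC of 1.21. By its ST probe Hspa2 was not called in batch 1 (diclofenac minus indomethacin L2FCs 0.73 and 2.86). Of 25 p53 targets, 8 were higher and 3 lower with diclofenac than with indomethacin, 4 and 4 than with naproxen, and 0 and 8 with indomethacin than with naproxen. The shares over all tested probes were 16.7% higher and 19.5% lower for diclofenac minus indomethacin, 15.9% higher and 19.4% lower for diclofenac minus naproxen and 7.42% higher and 7.66% lower for indomethacin minus naproxen, and counts of a list near these shares are no result about the list. Gadd45a, a growth arrest gene, averaged 812 and 1188 CPM with diclofenac, 332 and 322 with indomethacin and 526 and 615 with naproxen, against 236 and 250.2 in vehicle wells. Aen, a nuclease, and Pmaip1, the BH3-only protein NOXA, had diclofenac minus indomethacin L2FCs of 1.76 and 1.60 for Aen and 2.07 and 1.75 for Pmaip1.

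Of 40 antioxidant genes controlled by NRF2, 24 were lower and 3 higher with diclofenac than with indomethacin, 19 and 4 than with naproxen, and between indomethacin and naproxen 8 were higher and 1 lower. Among all tested probes, 19.5% were lower and 16.7% higher in the first pair and 19.4% and 15.9% in the second. The last pair had 7.42% higher and 7.66% lower. The members named by the rule were glutathione transferases. Gsta2 averaged 44.4 and 17.2 CPM with diclofenac, 435 and 153 with indomethacin, 421 and 133 with naproxen and 29.0 and 22.0 in vehicle wells, and Gsta5 had L2FCs against vehicle of 4.50 and 2.74 with indomethacin and 3.74 and 2.62 with naproxen. Gstm3 and Gstm2 were below vehicle with every drug, Gstm2 at -4.58 and -4.39 with diclofenac, -1.39 and -1.81 with indomethacin and -2.96 and -3.11 with naproxen. These families hold close copies, so single members are uncertain.

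Cholesterol synthesis genes, 22 tested, were lower with diclofenac in 15 cases against indomethacin and 14 against naproxen, higher in 1 and 0, where 19.5% and 19.4% of all tested probes were lower and 16.7% and 15.9% higher. Hmgcs1, a synthase early in the pathway, had diclofenac minus naproxen L2FCs of -2.02 and -2.60, although Insig1, which the same sterol pathway controls, was high with all 3 drugs. Of 20 lipogenic genes 13 and 11 were lower with diclofenac and none higher, against the same shares, and between indomethacin and naproxen 5 were higher and 2 lower (7.42% and 7.66% of all tested probes). Thrsp, a lipogenic hormone-responsive protein, was higher with indomethacin (indomethacin minus naproxen 2.51 and 1.75) and Elovl6, a fatty acid elongase, higher with naproxen (-1.70 and -2.17). Scd, the stearoyl-CoA desaturase, and Gpam, the first enzyme of glycerolipid synthesis, had diclofenac minus indomethacin L2FCs of -2.86 and -2.82 for Scd and -2.11 and -3.18 for Gpam.

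Of 32 glycolysis and hypoxia genes, 11 were lower and 2 higher with diclofenac than with indomethacin, 5 and 6 than with naproxen, and 7 were higher and 0 lower with indomethacin than with naproxen, where 19.5%, 19.4% (with 15.9% higher) and 7.42% of all tested probes were called in these directions. Among the named members, Pfkfb1, which sets the level of a fructose bisphosphate regulator, had diclofenac minus indomethacin L2FCs of -3.12 and -2.69, and Egln3, a HIF prolyl hydroxylase, of -2.03 and -2.66. Of 22 mitochondrial stress genes, 1 was higher and 3 lower in diclofenac minus indomethacin, 2 and 3 in diclofenac minus naproxen, and 4 and 3 in indomethacin minus naproxen, which is below the share of all tested probes in both directions of both pairs with diclofenac. Sod2, the mitochondrial superoxide dismutase, and Clpx, a chaperone of the matrix protease, were lower with diclofenac than with naproxen (-1.53 and -1.76 for Sod2 and -1.63 and -1.52 for Clpx). Lonp1, the matrix protease, was called in opposite directions in the 2 batches for diclofenac minus indomethacin (0.58 and -0.40).

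Inflammation and acute phase genes were lower with diclofenac in 12 of 28 cases against indomethacin and 13 against naproxen, higher in 2 and 0, and between indomethacin and naproxen 4 were higher and 5 lower. With diclofenac 19.5% and 19.4% of all tested probes were lower in these pairs and 16.7% and 15.9% higher. Between indomethacin and naproxen 7.42% were higher and 7.66% lower. The chemokine Cxcl11 averaged 4.04 and 13.1 CPM with diclofenac, 20.1 and 12.2 with indomethacin, 101 and 78.5 with naproxen and 36.1 and 41.7 in vehicle wells, and Ccl20, at no more than 2 counts in any diclofenac well of batch 1, had indomethacin minus naproxen L2FCs of -1.67 and -1.56. Crp, C-reactive protein, was above vehicle with indomethacin (2.26 and 1.43) and naproxen (1.91 and 2.13) and below it with diclofenac (-0.62 and -1.79). Cxcl10 was higher with naproxen than with indomethacin in both batches (indomethacin minus naproxen -2.07 and -2.40), but its diclofenac level was 37.6 ± 20.5 CPM in batch 1 and 318 ± 256 CPM in batch 2, so that diclofenac minus naproxen was called in opposite directions (-2.20 and 1.10).

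Few genes of the pathway that all 3 drugs inhibit could be read. Of 32 listed genes of prostanoid synthesis, breakdown and reception, 28 were on the assay and 10 passed the filter on low counts. Of these, 1 was higher and 2 were lower with diclofenac than with indomethacin, 1 was higher than with naproxen, and 1 was higher with indomethacin than with naproxen. The shares of all tested probes in these directions were 16.7%, 19.5%, 15.9% and 7.42%, so these counts are no result about the list. Ptgs1, which encodes COX-1, was read at 2.69, 2.59 and 2.78 CPM with diclofenac, 1.34, 1.25 and 2.00 CPM with indomethacin and 1.39, 2.29 and 3.28 CPM with naproxen in batch 1, with vehicle at 1.51 to 3.31 CPM (median 2.11). In batch 2 it was read at 2.21, 1.09 and 1.82 CPM with diclofenac, 2.02, 1.51 and 0.772 CPM with indomethacin and 1.45, 1.41 and 1.16 CPM with naproxen, with vehicle at 0.964 to 2.68 CPM (median 2.53). No pair was called (adjusted p from 0.117 to 0.85 in edgeR), and the intervals were wide at these counts, -0.03 to 1.62 for diclofenac minus indomethacin in batch 1 and -0.83 to 1.09 for indomethacin minus naproxen in batch 2. Ptgs2, which encodes COX-2, averaged below 10 counts per well and was not tested. Cbr1, a carbonyl reductase that acts on prostaglandin E2, was higher with diclofenac (1.01 and 0.78 against indomethacin and 0.79 and 0.64 against naproxen). Ptgr1, which inactivates prostaglandins and leukotriene B4, was higher with indomethacin than with naproxen (0.91 and 1.02), and Pla2g2a, a secreted phospholipase A2, was lower with diclofenac than with indomethacin (-2.17 and -1.80), a call lost without indomethacin replicate 3 of batch 2 (-1.35).

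Markers of the other liver cell types a hepatocyte isolate can hold were at low levels. Summed Kupffer cell markers (11 of 17 tested) had medians of 139.5 and 69.9 CPM with diclofenac, 149 and 95.9 with indomethacin, 152 and 103 with naproxen and 165 and 147 in vehicle wells. Of them, Cd68 was higher (0.96 and 0.90) and Cd14 lower (-0.65 and -0.90) with diclofenac than with indomethacin, and Cd68 lost its call without any of 5 single wells (diclofenac replicates 1 and 3 and indomethacin replicates 2 and 3 of batch 1, and indomethacin replicate 3 of batch 2; smallest L2FC 0.75). Of 7 stellate cell genes, 3 and 2 were lower with diclofenac, and between indomethacin and naproxen 1 was higher and 1 lower, where 19.5%, 19.4%, 7.42% and 7.66% of all tested probes were. Col1a1 and Des were at no more than 3 counts per well in every group. Reln, a secreted matrix protein, fell in the order naproxen, indomethacin, diclofenac (diclofenac minus naproxen -1.24 and -1.47), Tagln, a smooth muscle protein, was higher with indomethacin than with naproxen (1.65 and 1.91), and Rgs5, a pericyte marker, was at no more than 3 counts in any diclofenac well against a mean of 3.44 CPM with indomethacin in batch 1. Tagln lost its call without indomethacin replicate 3 of batch 1 (0.74), and Timp1, a metalloproteinase inhibitor (diclofenac minus naproxen -0.44 and -0.58), without any of 5 wells: diclofenac replicates 1 and 3 and naproxen replicates 1 and 2 of batch 1, and naproxen replicate 3 of batch 2 (smallest L2FC -0.22).

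Endothelial markers summed to 2.51 to 9.18 CPM as group medians, with Stab2 and Vwf at no more than 3 counts in any well, and 1 of them, Eng, was tested. It averaged 1.14 and 0.257 CPM with diclofenac and 2.64 and 1.63 with naproxen, and its call as lower with diclofenac was lost without replicate 3 of either drug in batch 1 (fitted L2FCs -0.69 and -0.99). Biliary markers were tested for 7 genes, of which 4 were lower with diclofenac than with indomethacin, 4 than with naproxen, and 3 were higher and 1 lower with indomethacin than with naproxen. Among all tested probes 19.5%, 19.4%, 7.42% and 7.66% were called in these directions. The defining Krt7, Krt19 and Cftr were at no more than 3 counts in every group, and the sums, from 809 CPM with diclofenac to 4753 CPM in vehicle wells of batch 1, were carried by Krt8 and Krt18, which hepatocytes also express. Krt8 had indomethacin minus naproxen L2FCs of 0.60 and 1.04 and Krt18 1.27 and 0.88. Epcam had 1.97 and 1.68, and Sox9, a factor of biliary and progenitor cells, -1.56 and -1.24.

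The ST libraries, made from the same lysates, served as a check of the assay and not of the cells. Of the WT probes called in both batches that the ST assay also tested, the ST assay made the same call for 606 of 755 in diclofenac minus indomethacin, 585 of 709 in diclofenac minus naproxen and 252 of 356 in indomethacin minus naproxen, and the opposite call for none. Of the set-apart probes it repeated 225 of 283 for diclofenac, 31 of 42 for indomethacin and 29 of 33 for naproxen, and 5 of 12 common ones. The L2FCs of the 2 assays correlated across 1481 shared probes at r = 0.887 to 0.967 over the 3 pairs and 2 batches. Within the ST assay alone, where 57%, 52.8% and 38.3% of the tested probes were called in batch 1 for the 3 pairs in the same order, 67%, 65.2% and 34.6% in batch 2 and 50.2%, 45.3% and 23.2% in both, 326 (18.3%) of 1781 tested probes were set apart by diclofenac, 57 (3.2%) by indomethacin and 55 (3.09%) by naproxen, and 10 (0.561%) were common. By ST assay the indomethacin minus naproxen L2FC was 4.61 and 3.41 for Cyp1a2 and -1.82 and -1.80 for Fgf21, and diclofenac minus naproxen was -6.34 and -7.23 for Fabp1 and 2.45 and 2.74 for Creld2.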

How the data were processed

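TempO-Seq libraries of cell lysates were sequenced with the ST and WT assays. The authors deposited raw counts per probe and well, for which the submitters' processing notes list STAR 2.5.3a and rn6. The study's methods name bcl2fastq for demultiplexing, up to 2 mismatches in the alignment and the TempO-SeqR package for counting. The deposited counts were used as they stand, and every value was a whole number.

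A separate edgeR 4.0.16 model (R 4.3.3, limma 3.58.1) was used for each assay in each batch, with TMM scaling and every treatment as a group, on probes with a mean of at least 10 counts over the 186 wells (10689 of 22253 WT and 1781 of 2654 ST probes). A low count thus limits which genes could be called. Quasi-likelihood F tests compared the 3 pairs of drugs, each drug with vehicle, and the mean of the 3 drugs with vehicle and with the other 11 chemicals. P-values of the pairs were adjusted by Benjamini-Hochberg over probes and the 3 pairs together. Those of every other contrast were adjusted over probes by itself. Standard errors were taken as the L2FC over the root of F. Where every well of a group was at 0, folds were bounded with 3 counts per well, which covers counting error only.

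Of probes set apart, the first 6 per drug and direction were named by the smallest of 4 absolute L2FCs, of common probes the first 6 higher and 4 lower, and of each of 22 gene lists up to 4 by the pair with the largest smallest L2FC over the batches among those called in both, plus Ptgs1 and Ptgs2. Provisional symbols were counted but not named, and some genes that these rules select are not reported here. The members, the lists and these rules were chosen with earlier results of these data known. On simulated counts with 200 probes changed 4-fold in diclofenac wells, the WT procedure found 190 and the ST procedure 186, with 0 false calls, and of 100 probes changed 4-fold by all 3 drugs it found 91 and 90. All other simulated probes were alike in every group, with the spread of vehicle wells. Its 0 false calls are therefore no measure of the rate of false calls in these data. The alternatives were RLE scaling, no filter, DESeq2 1.42.0, adjustment within each pair, only the wells of the 3 drugs and vehicle, both batches in 1 fit, own-plate vehicle wells, other thresholds, the ST probe and leaving out each well. Promoter windows came from RefSeq (GRCr8).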

Additional observations from a re-analysis of the deposited data

Results flagged for a closer look

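Among the 46 genes of the rules for set-apart and common probes, 6 had 1 of the 6 vehicle wells of batch 2 far from the other 5. This was judged by the gap to the nearest well relative to the range of all 6. For normally spread values chance passes that limit in about 1 in 20 genes. That well was at 3.43 CPM against 2.43 to 2.57 for Slc10a1, at 87.2 CPM against 70.4 to 75.9 for Creld2, at 76.2 CPM against 67.8 to 70.6 for Gfer and at 46.9 CPM against 40.0 to 41.9 for Sesn3. For Acot1 and Krt23 it was at 0.173 CPM, a single count, with 0 in the others, where that rate does not apply. The Creld2 well still lay below all naproxen wells of batch 2, which were at 96.7, 106 and 99.7 CPM.

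The contrast of a drug with the mean of the other two differed between the batches for 4 of these genes, by a test of batch 1 minus batch 2 in edgeR adjusted over all tested probes. The difference was 1.59 ± 0.46 (SE, adjusted p = 0.0187) for Ank2 and 1.98 ± 0.47 (adjusted p = 0.00223) for Urad in diclofenac wells, 1.57 ± 0.30 (adjusted p = 0.000131) for Cyp1a2 in indomethacin wells and -1.33 ± 0.28 (adjusted p = 0.00123) for Fabp1 in naproxen wells. Each kept its direction in both batches. Over all 10689 probes the same test called 746 (6.98%) for diclofenac, 1067 (9.98%) for indomethacin and 411 (3.85%) for naproxen.

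Of 118 named probes, 2 had been called in opposite directions in the batches for a pair, and the difference was tested after that was seen. For Lonp1, diclofenac minus indomethacin differed by 0.98 ± 0.24 (adjusted p = 0.00326), and for Cxcl10, diclofenac minus naproxen by -3.29 ± 0.54 (adjusted p = 4.45e-06). The batches differ in the rat, the plates, the library preparation and the sequencing, which cannot be told apart.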

How the results depend on the processing

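RLE scaling, no filter on low counts, DESeq2, adjustment within each pair, only the wells of the 3 drugs and vehicle, and own-plate vehicle wells in batch 2 left each count within 1.5 times the reported one, and no named gene changed direction under any alternative. What counts as a call moved counts by more. Asking also for an absolute L2FC of at least 1 left, for diclofenac minus indomethacin, diclofenac minus naproxen and indomethacin minus naproxen in that order, 2349, 1990 and 1130 WT probes in batch 1, 2574, 2423 and 690 in batch 2 and 1634, 1548 and 376 in both, and 611, 568 and 304 ST probes in batch 1, 701, 656 and 186 in batch 2 and 495, 443 and 136 in both. Without a minimum L2FC, 2604, 785 and 578 WT and 632, 216 and 146 ST probes were set apart by diclofenac, indomethacin and naproxen. A single fit of both batches, where a probe need not be called in each, gave 6391, 6189 and 4163 WT probes for the pairs and 802 ST probes for the last pair. The same fit gave 1508, 362 and 246 set-apart WT probes, 105 and 86 ST probes set apart by indomethacin and naproxen, and 187 and 175 WT and 46 and 42 ST probes common to the class and common and apart from the other chemicals. Calling each drug against vehicle with no limit on the intervals gave 397 and 341 WT and 118 and 103 ST common probes, with both choices changed together.

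Leaving out 1 well at a time moved no count past 1.5 times: the WT calls in both batches ranged over 3524 to 3857, 3361 to 3785 and 1411 to 1607, the set-apart probes over 901 to 1032, 140 to 177 and 118 to 135, and the common probes over 35 to 43. Of 2358 fits of a named gene without a well, 33 lost a call, those of Abcc6 (fitted L2FC -2.19 without indomethacin replicate 3 of batch 1) and of the genes named in the report. Own-plate vehicle wells lost the calls of Acot1, Dgkh, Ipcef1, Krt23 (smallest naproxen minus other drug L2FC 3.30 against 3.24 with the drug wells compared directly), Nek2l1 and Rab15, the ST probe that of Hspa2, and the fit of only the 3 drugs and vehicle those of Eng, Hspa2 and Timp1. When the vehicle of one plate was compared with that of the other in batch 2, 0 WT probes were called in edgeR (1476 at an unadjusted p below 0.05) and 0 ST probes (154), both more at that p than the 1 in 20 that chance gives. Of the 118 named WT probes, 5 differed between these plates by an absolute L2FC above 1, up to 1.95 for Krt23, so the plates are not shown to be alike. In batch 1 no vehicle stood on the indomethacin plate. No paired analysis was possible because the labels give the wells no replicate numbers, and those used here only name the wells. The check on simulated counts covered 4-fold changes only, so that smaller ones have no measured rate of detection.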
